A study of Mus musculus with 14 samples.

Results

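The 10 genes described here encode glutathione peroxidases and small or secreted selenoproteins: Gpx1, Gpx3, Gpx4, Gpx7, Gpx8, Msrb1, Selenow, Selenop, Selenok and Selenom. They are listed by symbol, and the list was drawn up with earlier results of these data known, so the p-values given for them are not those of a blind choice. Each was found by its Ensembl identifier among the 55487 gene identifiers of the count table, and 10 of 10 passed the filter on low counts with the 15528 genes tested. RNA came from whole hearts of untreated male C57BL/6 mice. Wild-type (WT) hearts were compared with hearts of Myh6-Cre-Sqstm1fl/fl mice (KO), in which Cre under the cardiac muscle promoter of Myh6 removes the floxed Sqstm1 gene, which encodes the adaptor protein p62. There were 3 WT and 3 KO hearts at 2 months of age, and 4 WT and 4 KO hearts at 15 months. The labels do not say whether WT mice carried floxed alleles or Cre. The promoter drives Cre in cardiac muscle cells, and Sqstm1 was not measured by cell type. In these bulk samples, fewer cells of a type and less RNA per cell cannot be told apart.

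Glutathione peroxidases reduce hydrogen peroxide and lipid hydroperoxides with electrons from glutathione. Most selenoproteins carry selenocysteine in the active site, and the ribosome inserts it at a UGA codon when a hairpin in the 3′ untranslated region recruits Secisbp2 and the elongation factor Eefsec. The adaptor p62 binds Keap1, the inhibitor of the transcription factor Nrf2, and Nrf2 drives many antioxidant genes, so the series asks how the loss of p62 in cardiac muscle bears on oxidative stress. In heart muscle Gpx1 and Gpx4 are known for their part in protection from peroxides, and Selenow is an abundant muscle selenoprotein.

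The codon that separates true selenoproteins from their cysteine relatives is shown first, because it divides the list, being present in 8 of the 10 genes. The lines below give the coding sequence of GENCODE M21 on GRCm38, read 5′ to 3′ on the gene's own strand, with 12 bases on each side of the codon (fewer at the end of Selenok). The selenocysteine codon, or the cysteine codon at its aligned place, is in capitals, and codons are counted from the start codon.
Gpx1, codon 47: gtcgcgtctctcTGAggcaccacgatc
Gpx3, codon 73: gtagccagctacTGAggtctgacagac
Gpx4, codon 129: gtggcctcgcaaTGAggcaaaactgac
Gpx7, codon 56: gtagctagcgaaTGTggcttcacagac
Gpx8, codon 79: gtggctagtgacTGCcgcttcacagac
Msrb1, codon 95: caatcaagattcTGAatatttagcagc
Selenow, codon 13: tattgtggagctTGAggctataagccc
Selenop, codon 59: cttcaagccagcTGAtacttgtgtctt
Selenok, codon 92: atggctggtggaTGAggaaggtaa
Selenom, codon 48: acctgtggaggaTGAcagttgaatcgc

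Gpx7 and Gpx8 held 0 in-frame TGA codons and had TGT and TGC at the aligned place, which both encode cysteine. Selenop, the plasma carrier that delivers selenium to tissues, held 10 in-frame TGA codons among its 380 codons. The first is codon 59 and the other nine lie between codons 259 and 377. In Selenok the codon is number 92 of 94, next to the end of the protein. Coding sequences of the 5 peroxidases were 51.9% (Gpx4 and Gpx8) to 62.9% (Gpx1 and Gpx3) identical over aligned bases and are thus distinct from each other.

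On GRCm38 in GENCODE M21, the selenocysteine codon of Gpx1 is at chr9:108339451-108339453 on the plus strand, in a gene that spans chr9:108338903-108340343. Gpx3 spans chr11:54902453-54910377 and Gpx4 spans chr10:80047166-80056439, both on the plus strand. Gpx7 spans chr4:108400390-108406961 and Gpx8 spans chr13:113042753-113046410, both on the minus strand. Msrb1 spans chr17:24736642-24742778 on the plus strand, and Selenow spans chr7:15917208-15922402 on the minus strand. Selenop spans chr15:3268547-3280508, Selenok spans chr14:29968308-29975662 and Selenom spans chr11:3514684-3517351, all on the plus strand. Selenop shares 439 exonic bases with Ccdc152 on the other strand, which held 35 counts over all libraries against 209316 for Selenop. The pseudogene Gpx4-ps2 held 8506 counts against 191981 for Gpx4, so part of the Gpx4 signal could have been assigned to it, and the level of Gpx4 is uncertain to that extent.

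The core of the antioxidant response element, the motif that Nrf2 binds with small Maf proteins, was searched on both strands of RefSeq promoters (GRCm38.p6, 250 bases before to 50 after the start) as TGACNNNGC. It was present in 1 of 15 promoters of the 10 genes (6.67%) and in 4071 of 32851 promoters in all (12.4%). The match was in Selenok, whose promoter window is chr14:29968130-29968429, and is shown with the motif in capitals because it is the only one: tacttgtgTGACTGGGCggaacctc. A match is a description of letters only, and these windows do not cover more distant elements.

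Library totals ranged from 20218992 to 30404416 counts, of which 27.5% to 46.0% came from mitochondrially encoded genes. Cardiomyocyte markers (Myh6, Tnnt2 and 6 others) summed to 35945 to 45878 CPM (counts relative to the library total after TMM scaling, which corrects for composition) with 0 of 8 at 0, and liver markers stayed at or below 0.488 CPM. Sqstm1 was at 139 to 177 CPM in WT and 14.7 to 19.2 CPM in KO hearts at 2 months, and at 173 to 238 against 14.6 to 37.0 CPM at 15 months, so the deleted gene followed the labels. The labels do not say that hearts of a group were processed separately, and the p-values thus cover only the spread seen among them, which may be technical.

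Per kilobase of exon, so that genes can be compared, Gpx4 was the most abundant of the 10 transcripts, with a mean of 338 CPM per kb over the 14 libraries. Selenop followed at 224, Selenow at 180, Gpx3 at 82.7, Msrb1 at 67.2 and Gpx1 at 50.7 CPM per kb. Lower levels were measured for Selenok at 24.995, Gpx8 at 16.2, Selenom at 9.65 and Gpx7 at 3.95 CPM per kb. In each of the 4 groups 9 genes kept this order, but the place of Gpx3 moved: its mean in KO hearts at 2 months was 52.9 CPM per kb, below Msrb1 at 98.8 and Gpx1 at 70.0, and its highest value, 198 CPM per kb, came from WT replicate 1 at 2 months. The ranges over libraries of each pair of neighbours in the pooled order overlapped, except for Selenom and Gpx7, where the lowest Selenom value was 7.07 and the highest Gpx7 value 5.92 CPM per kb. Gpx7 rested on 86 to 179 counts per library, the fewest of the 10.

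**Figure D1:**
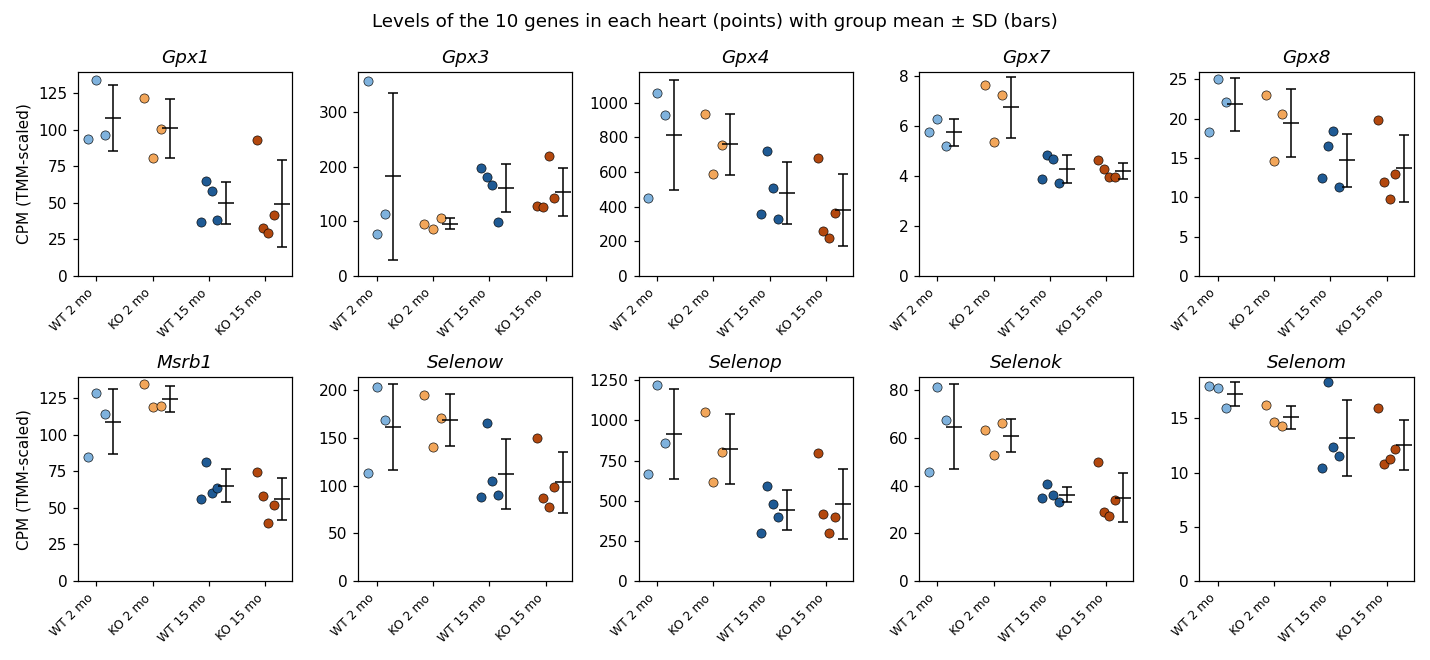
Level of each of the 10 genes in every heart (points; CPM on a linear axis from 0) with the group mean and SD (bars), for WT and KO hearts at 2 and 15 months. WT and KO points overlap at both ages in each panel, while 15-month points of Msrb1 and Gpx7 lie below all 2-month points.

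Loss of Sqstm1 in cardiac muscle was not accompanied by a called change in any of the 10 genes at either age. Gpx1, the cytosolic and mitochondrial peroxidase, was at 93.4, 134 and 96.2 CPM in the WT hearts and at 122, 80.7 and 100 CPM in the KO hearts at 2 months. At 15 months Gpx1 was at 36.7, 65.2, 38.4 and 58.3 CPM in WT and at 93.3, 32.9, 29.4 and 41.4 CPM in KO hearts. The groups overlapped at both ages, and KO replicate 1 at 15 months stood far above the other 3 KO hearts.

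Gpx4, which reduces phospholipid hydroperoxides in membranes and holds back ferroptosis, was at 453, 1056 and 931 CPM in WT and at 938, 587 and 756 CPM in KO hearts at 2 months. The 15-month hearts had 356, 722, 331 and 507 CPM in WT and 681, 259, 220 and 363 CPM in KO hearts. WT replicate 2 and KO replicate 1 had the highest level of their group for both Gpx1 and Gpx4 at each age, whereas WT replicate 3 at 2 months was near the lowest of its group for Gpx1 and near the highest for Gpx4. Gpx4 had a log2 difference between KO and WT of -0.10 (SE 0.42) at 2 months and -0.33 (SE 0.36) at 15 months.

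Gpx3, the secreted plasma peroxidase, was at 358, 77.0 and 113 CPM in WT and at 95.0, 86.3 and 106 CPM in KO hearts at 2 months. At 15 months Gpx3 was at 199, 182, 98.5 and 166 CPM in WT and at 128, 127, 219 and 143 CPM in KO hearts. One library, WT replicate 1 at 2 months, was above all others for Gpx3 and carried 1711 CPM of summed atrial markers, against 109 to 167 CPM in the other 2-month libraries. It also carried 40.5 CPM of summed fat cell markers, against 0.54 to 2.27 CPM in those libraries. Its summed fibroblast markers, at 1522 CPM, were the highest of all libraries. Across the 14 libraries, as a description, Gpx3 had r = 0.71 with the mean log2 level of the atrial markers. With the same measure r was 0.67 for smooth muscle and pericyte, 0.38 for fibroblast and 0.26 for endothelial markers. It was 0.09 for macrophage and -0.41 for cardiomyocyte markers. The part of these markers in the Gpx3 values was not tested. The log2 difference of Gpx3 between KO and WT at 2 months was -0.93 (SE 0.44), with an unadjusted p of 0.0495 and an adjusted p of 0.9997 in edgeR's quasi-likelihood test. Without WT replicate 1 it was 0.02.

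Gpx7 and Gpx8 are peroxidases of the endoplasmic reticulum and use cysteine. Gpx7 was at 5.78, 6.27 and 5.18 CPM in WT and at 7.63, 5.36 and 7.24 CPM in KO hearts at 2 months. The 15-month hearts had 3.86, 4.84, 3.70 and 4.68 CPM in WT and 4.64, 4.28, 3.94 and 3.95 CPM in KO hearts. The 15-month values of Gpx7 were below the 2-month values in both genotypes. Gpx8 was at 18.3, 25.01 and 22.1 CPM in WT and at 23.04, 14.6 and 20.6 CPM in KO hearts at 2 months. Its 15-month levels were 12.5, 16.6, 11.3 and 18.4 CPM in WT and 19.8, 11.99, 9.84 and 12.999 CPM in KO hearts. For Gpx8 the ages overlapped in both genotypes, since the highest 15-month hearts exceeded the lowest 2-month heart of the same genotype.

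Msrb1, a methionine-R-sulfoxide reductase that repairs oxidised methionine, was at 84.6, 128 and 114 CPM in WT and at 135, 119 and 120 CPM in KO hearts at 2 months. At 15 months Msrb1 was at 56.0, 81.2, 63.3 and 59.8 CPM in WT and at 74.4, 57.8, 40.0 and 52.0 CPM in KO hearts. No 15-month heart reached the lowest 2-month heart. In KO hearts the mean was 124 ± 8.90 CPM (SD, n = 3) at 2 months and 56.0 ± 14.3 CPM (SD, n = 4) at 15 months.

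Selenow, a small protein with a thioredoxin fold, was at 113, 203 and 169 CPM in WT and at 195, 140 and 170 CPM in KO hearts at 2 months. The 15-month hearts had 87.5, 165, 90.3 and 105 CPM in WT and 150, 86.8, 77.7 and 98.9 CPM in KO hearts. The ages overlapped for Selenow in both genotypes. Selenop was at 666, 1222 and 860 CPM in WT and at 1051, 616 and 805 CPM in KO hearts at 2 months. The 15-month hearts had 298, 593, 396 and 483 CPM in WT and 794, 418, 302 and 400 CPM in KO hearts. For Selenop the ages did not overlap in WT but did in KO hearts, where replicate 1 at 15 months was above replicate 2 at 2 months.

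Selenok, a membrane protein of the endoplasmic reticulum that supports palmitoylation, was at 45.7, 81.2 and 67.4 CPM in WT and at 63.3, 53.1 and 66.3 CPM in KO hearts at 2 months. At 15 months Selenok was at 34.9, 40.9, 33.2 and 35.9 CPM in WT and at 49.8, 29.0, 27.3 and 33.9 CPM in KO hearts. Within each genotype the 15-month hearts were below the 2-month hearts. Selenom, a thioredoxin-like protein of the endoplasmic reticulum, was at 18.0, 17.8 and 15.96 CPM in WT and at 16.3, 14.7 and 14.3 CPM in KO hearts at 2 months. Its 15-month levels were 10.5, 18.4, 11.6 and 12.3 CPM in WT and 15.97, 10.8, 11.3 and 12.2 CPM in KO hearts. The ages overlapped for Selenom in both genotypes, and WT replicate 2 at 15 months had its highest value in any library.

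The first comparison asked whether KO hearts differed from WT hearts. At 2 months 0 of 10 genes passed an adjusted p of 0.05 (edgeR's quasi-likelihood test, Benjamini-Hochberg over all genes), against 0.00644% of all genes tested, which is Sqstm1 alone. At an unadjusted p of 0.05, 1 of 10 passed (Gpx3), against 3.18% of all genes, and 0 of 10 passed the adjusted test in DESeq2 or limma voom. The median log2 difference of the 10 genes was -0.10, with 7 below 0, against -0.001 and 50.3% below 0 for all genes. Among genes with exons of 56 to 2104 bases, which include 9 of these 10, it was -0.03, with 53.9% below 0. Estimates of the 10 genes ran from -0.93 for Gpx3 to 0.23 (SE 0.18) for Gpx7. WT and KO overlapped in 10 of 10 genes. Over all genes, 3.72% were lower without overlap and 4.43% higher without overlap.

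At 15 months 0 of 10 passed the adjusted test, against 0.00644% of all genes, and 0 of 10 passed at an unadjusted p of 0.05, against 3.97%. DESeq2 and limma voom also called 0 of 10. The median log2 difference was -0.07, with 9 of 10 below 0, against 0.008 and 48.3% below 0 for all genes. Among genes with exons of 56 to 2104 bases, which include 9 of these 10, it was -0.08, with 61.2% below 0. The 10 genes were thus not lower than genes of such length. Among the 10, the smallest standard errors belonged to Gpx7, at -0.02 (SE 0.16), and Selenom, at -0.07 (SE 0.17). Gpx1 was at -0.01 (SE 0.32), Selenop at 0.11 (SE 0.30) and Msrb1 at -0.22 (SE 0.18). Leaving out a single library turned the sign of each of these estimates except that of Msrb1. Groups overlapped in 10 of 10 genes, while 1.23% of all genes were lower and 0.76% higher without overlap.

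Averaged over the ages, 0 of 10 passed either the adjusted test (0.00644% of all genes) or an unadjusted p of 0.05 (3.26%), and DESeq2 and limma voom called 0 of 10. Estimates ran from -0.50 (SE 0.29) for Gpx3 to 0.10 (SE 0.12) for Gpx7. A difference between the KO effects at 15 and 2 months was not found: 0 of 10 genes and 0% of all genes passed the adjusted test. At an unadjusted p of 0.05 it was 0 of 10, against 3.72% of all genes, and DESeq2 and limma voom called 0 of 10. The largest estimate of this difference was 0.87 (SE 0.57) for Gpx3, which was -0.07 without WT replicate 1 at 2 months.

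**Figure D2:**
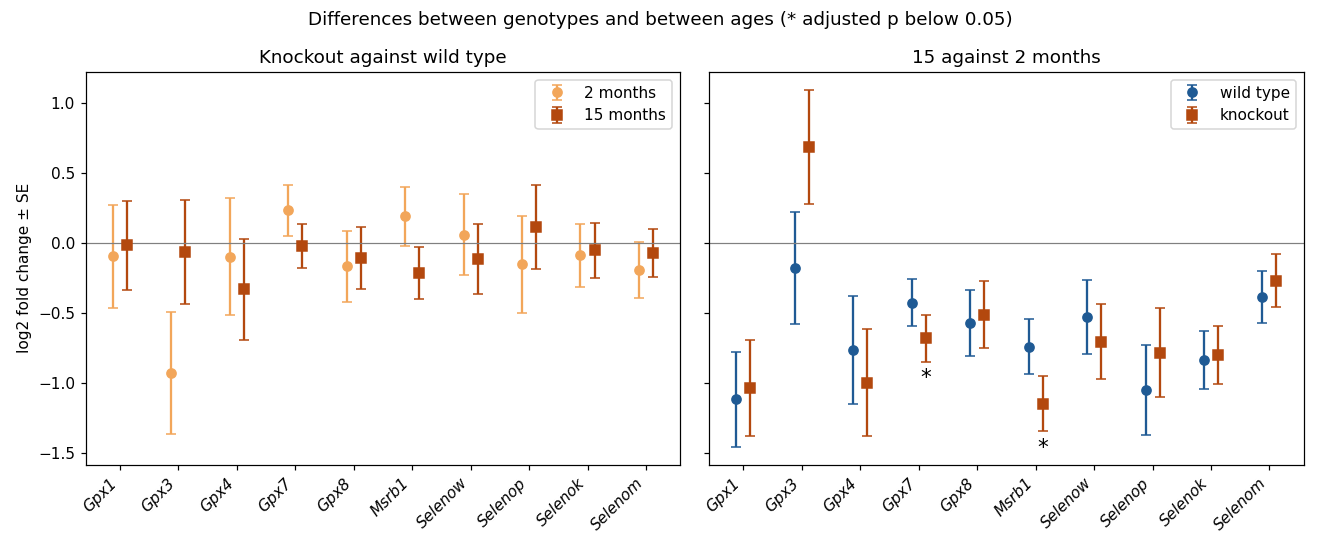
Log2 difference of each gene (points, with SE as bars) for KO against WT hearts at each age in one panel and for 15 against 2 months in each genotype in the other. Differences between genotypes lie around 0, whereas age differences lie below 0 in WT for 10 of 10 genes and in KO for all but Gpx3, and asterisks mark Gpx7 and Msrb1 in KO hearts.

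The second comparison set 15-month against 2-month hearts within a genotype. In WT hearts 10 of 10 estimates were below 0, with a median log2 difference of -0.66, against -0.02 and 51.7% for all genes. Selenok was lower by -0.84 on the log2 scale (SE 0.21, adjusted p = 0.0674), Msrb1 by -0.74 (SE 0.20, adjusted p = 0.0786) and Gpx1 by -1.12 (SE 0.34, adjusted p = 0.103). Selenop was at -1.05 (SE 0.32, adjusted p = 0.104). None of the 10 passed, so 0 were called by edgeR in either direction, against 1.04% of all genes and 0.425% called lower.

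At an unadjusted p of 0.05, 6 of 10 were lower in WT hearts, against 12.7% of all genes. In 5 of 10 genes (Gpx1, Gpx7, Msrb1, Selenop and Selenok) no 15-month WT heart reached the lowest 2-month WT heart, against 7.57% of all genes. DESeq2 called 4 of 10 (Gpx1, Msrb1, Selenop and Selenok) and limma voom 0 of 10. Over all genes DESeq2 called 1100 here, against 161 by edgeR. Without WT replicate 1 at 2 months, edgeR called 2 of the 10, Msrb1 at -0.89 (adjusted p = 0.0371) and Selenok at -1.02. The number of genes called over all then rose from 161 to 511. Without any other single WT library edgeR called 0 of the 10.

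In KO hearts 9 of 10 estimates were below 0, with a median of -0.75, against 0.006 and 49.4% for all genes. Msrb1 fell to 0.451 of its 2-month level (log2 difference -1.15, SE 0.20, adjusted p = 0.0113). Gpx7 fell to 0.623 of its 2-month level (log2 difference -0.68, SE 0.17, adjusted p = 0.0491). These 2 of 10 were called lower, against 1.18% of all genes called lower and 2.25% called in either direction. DESeq2 called 4 of 10 (Gpx1, Gpx7, Msrb1 and Selenok) and limma voom 3 of 10 (Gpx7, Msrb1 and Selenok). Over all genes DESeq2 called 1622 here, against 349 by edgeR. Gpx7 lost its call with RLE scaling (adjusted p = 0.0528), with no filter (0.113), with the compared groups only (0.0952) and without mitochondrially encoded genes (0.0523). Selenok was at -0.80 (SE 0.21, adjusted p = 0.0575), Gpx1 at -1.04 (SE 0.34, adjusted p = 0.0940) and Gpx4 at -0.998 (SE 0.39, adjusted p = 0.126).

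At an unadjusted p of 0.05, 8 of 10 were lower in KO hearts, against 14.1% of all genes. No overlap was seen for Gpx7, Msrb1 and Selenok, all lower at 15 months, against 11.3% of all genes, and for Gpx3, which was higher at 15 months, against 8.83% of all genes. Gpx3 had a log2 difference of 0.69 (SE 0.41, adjusted p = 0.287). The call of Msrb1 was lost without KO replicate 1 at 2 months (-1.09, adjusted p = 0.0688), and that of Gpx7 was lost without any 1 of 6 of the 7 KO libraries, with adjusted p from 0.0603 to 0.227. Without KO replicate 1 at 15 months, the heart with the highest Gpx1, Gpx4, Selenow and Selenop of its group and with the largest mitochondrially encoded share of all libraries (46.0%), 8 of 10 were called lower. Then Gpx1 was at -1.55, Gpx4 at -1.44, Selenop at -1.14 and Selenok at -1.02, while the number of genes called over all rose from 349 to 3523.

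Some markers of cell types also differed between the ages, and their part in the age differences of the 10 genes was not tested. Of the 8 endothelial markers (0 at 0 in any library), 4 were called higher and 0 lower averaged over genotypes, against 10.8% and 13.1% of all genes. At an unadjusted p of 0.05, 5 were higher and 2 lower. The 8 markers had a median log2 difference of 0.48, from -0.51 to 1.05, with 3 below 0. Their sum was 698 to 912 CPM at 2 months and 743 to 924 CPM at 15 months in WT, and 798 to 976 and 772 to 1479 CPM in KO hearts. As a description over 14 libraries, the mean log2 level of these 8 markers was correlated with the levels of the 10 genes. The r was -0.70 to -0.63 for 8 of the 10 genes, -0.43 for Gpx7 and 0.26 for Gpx3. Of the 6 skeletal muscle markers 3 (Acta1, Mylpf and Ckm) were tested. These 3 were called lower averaged over genotypes, against 13.1% of all genes. Myh1, Myh4 and Tnnt3 did not pass the filter on low counts. The skeletal muscle sum was 1441 to 1833 CPM at 2 months and 1316 to 1482 CPM at 15 months in WT, and 1620 to 1780 and 1090 to 1212 CPM in KO hearts. Most of that sum was Ckm (1016 to 1543 CPM over all libraries), with Acta1 at 63.0 to 549 CPM and Mylpf at or below 2.37 CPM. A change in skeletal muscle cells is thus not shown by it. The 10 macrophage markers (0 at 0) summed to 444 to 497 and 249 to 390 CPM in WT, and to 290 to 394 and 253 to 316 CPM in KO hearts. Lyz2 alone was at 64.2 to 276 CPM over all libraries. For age, 9 of the 10 had estimates below 0 in WT (median -0.30) and 4 of the 10 in KO hearts (median 0.04). Averaged over genotypes 1 of 10 was called lower and 0 higher, against 13.1% and 10.8% of all genes. The mean log2 level of the macrophage markers had r of -0.09 to 0.25 with the 10 genes.

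A further comparison, averaged over genotypes, was added after the data had been seen, because the age estimates had the same sign in both genotypes for 9 of the 10 genes. It called 8 of 10 genes lower, against 13.1% of all genes lower and 23.9% in either direction. Among genes with exons of 56 to 2104 bases, which include 9 of these 10, the share called lower was 30%. The same test was passed by 5 genes (Gpx1, Gpx7, Msrb1, Selenop and Selenok) in 14 of 14 fits that each left out 1 library. Msrb1 was at -0.95 (SE 0.14, adjusted p = 0.00141), Selenok at -0.82 (SE 0.15, adjusted p = 0.00441), Gpx7 at -0.55 (SE 0.12, adjusted p = 0.00881), Gpx1 at -1.08 (SE 0.24, adjusted p = 0.00991) and Selenop at -0.92 (SE 0.23, adjusted p = 0.0145). In these genes the 15-month level was 0.473 (Gpx1) to 0.681 (Gpx7) of the 2-month level.

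Gpx4 at -0.88 (SE 0.27, adjusted p = 0.0326) and Selenow at -0.62 (SE 0.19, adjusted p = 0.0311) were called as well, but each lost the call in 10 of 14 such fits. Gpx8 at -0.54 (SE 0.17, adjusted p = 0.0329) lost it in 9 of 14. Selenom was at -0.33 (SE 0.13, adjusted p = 0.0808) and Gpx3 at 0.25 (SE 0.29, adjusted p = 0.535). Without WT replicate 1 at 2 months Gpx3 was called higher at 0.74. At an unadjusted p of 0.05, 9 of 10 were lower, against 20.4% of all genes, and in Gpx7 and Msrb1 no 15-month heart of either genotype reached the lowest 2-month heart, against 1.40% of all genes.

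All 10 genes have short transcripts, and a measure of the libraries that depends on transcript length moved with age. The union of exons was 736 bases in Selenow to 2842 in Selenop, with a median of 1461, against 4113 for all genes tested, and 10 of 10 lay below that median. For each library, the difference of each gene's log2 CPM from its mean over libraries was regressed on the log2 exon length. The resulting length slope was negative in all 6 of the 2-month libraries (-0.177 to -0.0105) and positive in 6 of the 8 at 15 months (up to 0.235). The 15-month libraries with a negative slope were WT replicate 2 (-0.0744) and KO replicate 1 (-0.0916), which were the highest of their groups for Gpx1, Gpx4, Gpx7, Msrb1, Selenow, Selenop, Selenok and Selenom.

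When all genes were ranked by exon length and cut into 5 bins, the bin with the shortest exons (3103 genes of 56 to 2104 bases, with 9 of the 10 genes described here) had a median age difference of -0.39 in WT and -0.44 in KO hearts on the log2 scale. In that bin 0.709% of genes were called lower in WT, 3.06% in KO and 30% averaged over genotypes. The bin with the longest exons had medians of 0.16 and 0.23. The 10 genes had medians of -0.66 and -0.75, lower than those of the shortest bin, and this gap was not tested.

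**Figure D3:**
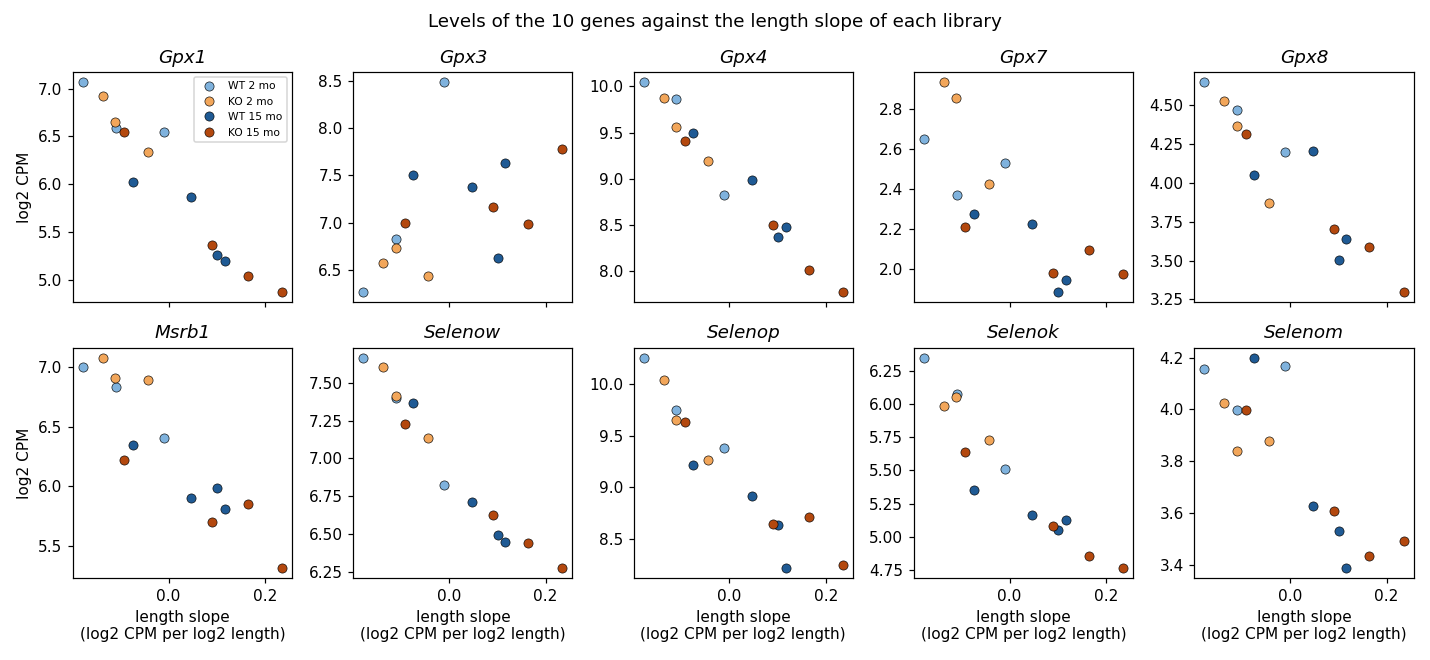
Log2 CPM of each gene (vertical) against the length slope of the library (horizontal, log2 CPM per log2 exon length), 1 point per library, coloured by group. For 9 of the 10 genes the points fall as the slope rises, also among the 8 libraries of 15 months, whereas those of Gpx3 do not fall (r = 0.46 over all libraries).

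The log2 levels followed this slope closely across the 14 libraries. Selenow had a Pearson r of -0.98 (Spearman rho -0.996) and Gpx4 had an r of -0.98 (rho -0.98), each with a permutation p of 1e-05, the smallest that 100000 resamples can give, and an adjusted p of 2e-05 over the 10 relations. Without the 2 libraries farthest from the median slope these were -0.98 and -0.97. For Gpx1, Gpx8, Msrb1, Selenop and Selenok r ran from -0.96 (Gpx1) to -0.91 (Msrb1). It was -0.86 for Selenom (rho -0.77) and -0.80 for Gpx7 (adjusted permutation p = 0.000633, rho -0.84). For Gpx3 r was 0.46 (adjusted permutation p = 0.0976) and rho was 0.58 (adjusted permutation p = 0.0340), both above 0. The slope comes from the same libraries as the levels, so these are descriptions of the libraries.

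The ages differ in slope, so the relation was also taken within each age. Among the 8 libraries of 15 months, Gpx4 had r = -0.98 (rho -0.95, exact permutation p = 0.000198, adjusted 0.000496) and Gpx1 had r = -0.96 (rho -1). Gpx7 had r = -0.72 (exact permutation p = 0.0510), which became -0.31 without the 2 farthest libraries, so it rests on those libraries. Among the 6 libraries of 2 months, Gpx4 had r = -0.96 (rho -0.94, exact permutation p = 0.00278, adjusted 0.0139) and Selenow had r = -0.98. Adjusted permutation p at that age was 0.0532 to 0.0536 for Gpx1, Gpx8 and Msrb1. Selenom at 2 months had r = -0.08 (-0.86 without the 2 farthest libraries) and Gpx7 had r = -0.47, so these relations did not hold within the younger group. Gpx3 had r = 0.72 at 2 months (adjusted permutation p = 0.106) and 0.20 at 15 months (adjusted permutation p = 0.632).

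With the length slope of each library as a covariate, 0 of 10 genes were called for age in WT, with a median log2 difference of -0.32. Over all 15528 genes, 123 were called in WT with the covariate, against 161 without it. In KO hearts Msrb1 was the only one of the 10 called (-0.68, SE 0.14, adjusted p = 0.0406), and the median of the 10 was 0.0005. Genes called over all in KO hearts numbered 86 with the covariate, against 349 without it. Averaged over genotypes, Msrb1 was again the only one of the 10 called (-0.52, SE 0.11, adjusted p = 0.0226). There the number called over all genes was 214, against 3712 without the covariate. Gpx4 (0.04) and Selenow (0.009) changed sign, and Gpx1 (-0.34, adjusted p = 0.226), Selenok (-0.34, adjusted p = 0.146) and Gpx7 (-0.36, adjusted p = 0.321) lost the call. Age and slope cannot be told apart in full, because the slope differs between the ages.

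**Figure D4:**
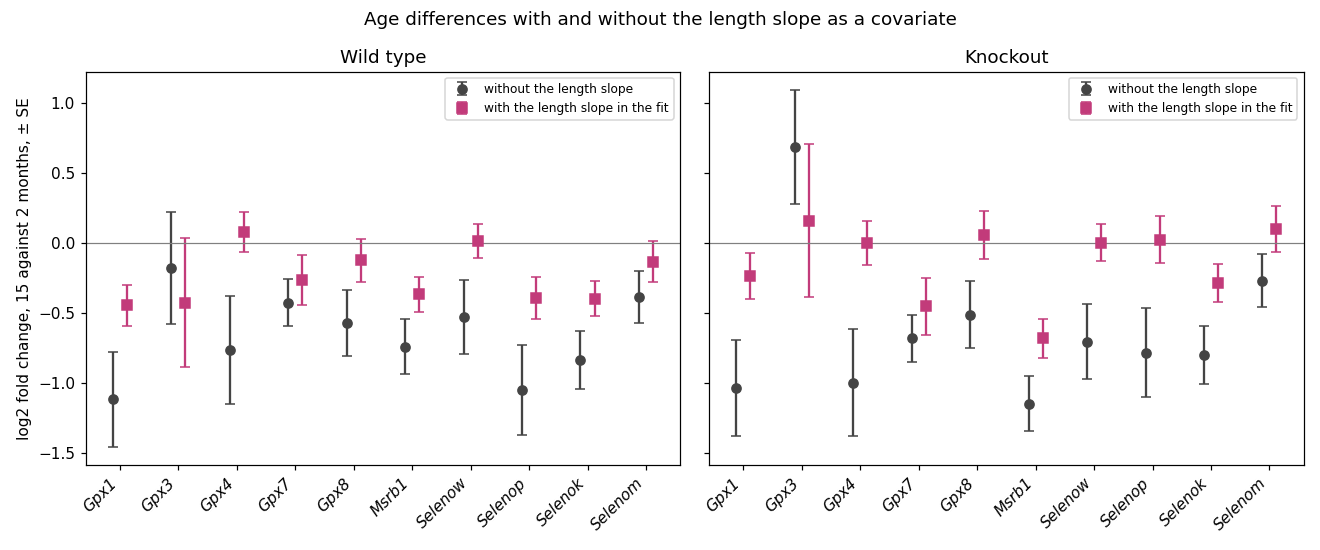
Log2 difference of 15 against 2 months for each gene (points, with SE as bars) in WT and KO hearts, without and with the length slope of the library as a covariate. With the covariate Gpx4, Selenow and Selenop in KO hearts lie near 0, while Msrb1 stays at -0.68 in KO hearts.

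The genes whose log2 levels were most like each member over the 14 libraries were ranked by Pearson r, as a description. The ranking covered tested protein-coding genes with a mean CPM of at least 1. Ribosomal protein genes, mitochondrially encoded genes, predicted models, clones and pseudogenes were left out of it by rule. Selenow was most like Serf2 (r = 0.995), Gpx4 most like Polr2k (0.994), Selenok most like Naa20 (0.991), Msrb1 most like Psmb7 (0.989), Selenop most like Apopt1 (0.983) and Gpx1 most like Sec11c (0.981). Gpx8 was most like Hist1h1a (0.975), Selenom most like Stx18 (0.969) and Gpx7 most like P4hb (0.931), the disulfide isomerase of the endoplasmic reticulum. Gpx3 stood apart, with Slc24a2 first at 0.884. Of the 29 distinct genes among the 3 nearest of each member, 23 were shorter than the median gene tested. Between the members themselves, 36 of 45 pairs had r above 0, with a median of 0.87 and a range of -0.55 to 0.97.

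Other selenoproteins were called in both directions for age and in neither for genotype. Of 17 listed, 12 were tested and 0 were called in any comparison of genotypes by edgeR, DESeq2 or limma voom, with 1 at an unadjusted p of 0.05 at each age. By the rule for naming genes, the smallest unadjusted p-values belonged at 2 months to Dio2, a thyroid hormone deiodinase (-1.30, SE 0.52, adjusted p = 0.9997), and at 15 months to Txnrd1, the cytosolic thioredoxin reductase (-0.33, SE 0.13, adjusted p = 0.999). Dio2 was at 8.14 CPM in WT replicate 1 at 2 months, the library also highest for Gpx3. It was at 1.46 to 2.03 CPM in the other 2-month hearts. For age, edgeR called 0 of 12 within either genotype, with medians of -0.06 in WT and -0.15 in KO hearts. At an unadjusted p of 0.05 it was 5 in WT (23.8% of all genes) and 3 in KO hearts (26.7%), while DESeq2 called 1 and 2 and limma voom 0 and 1. Averaged over genotypes, Selenoh at -0.90 (SE 0.19), Selenof at -0.71 (SE 0.21) and Selenot at -0.47 (SE 0.15) were called lower, and Txnrd1 at 0.35 (SE 0.10) was called higher, 4 of 12 against 23.9% of all genes. Selenoh kept its call in 14 of 14 fits that left out 1 library, Txnrd1 in 12, Selenof in 7 and Selenot in 3.

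Genes that supply selenium and insert selenocysteine were described as a list. Of 15 listed, 15 were tested, and 0 were called between genotypes by edgeR, DESeq2 or limma voom (at most 1 at an unadjusted p of 0.05). Rpl30, a ribosomal protein that binds the hairpin of selenoprotein messages, fell with age in WT hearts (-1.003, SE 0.23, adjusted p = 0.0496), the only call of this list by edgeR within a genotype. It was called in 1 of 7 fits that left out a WT library, with adjusted p up to 0.236. Averaged over genotypes Rpl30 was at -0.91 (SE 0.16), while Secisbp2 at 0.31 (SE 0.10) and its relative Secisbp2l at 0.27 (SE 0.09) were called higher, so that 3 of 15 passed, against 23.9% of all genes. Of these, Rpl30 kept its call in 14 of 14 fits without 1 library, Secisbp2 in 6 and Secisbp2l in 3.

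Among 20 genes of glutathione synthesis and other peroxide enzymes, 18 were tested and 0 were called between genotypes by edgeR, DESeq2 or limma voom (1 at an unadjusted p of 0.05 in edgeR, at 15 months). The smallest unadjusted p at 15 months was that of Gss, glutathione synthetase (-0.42, SE 0.15, adjusted p = 0.999). With age in KO hearts Prdx4, a peroxiredoxin of the endoplasmic reticulum, fell (-0.997, SE 0.23, adjusted p = 0.0397) and Ggt5, a gamma-glutamyltransferase, rose (1.01, SE 0.25, adjusted p = 0.0481). Each was called in 1 of 7 fits that left out a KO library, with adjusted p up to 0.179 for Prdx4 and 0.173 for Ggt5. In WT hearts edgeR called 0 of 18 (5 at an unadjusted p of 0.05, against 23.8% of all genes), DESeq2 1 and limma voom 0. Averaged over genotypes 7 of 18 were called lower and 4 higher, against 13.1% and 10.8% of all genes. The lower ones were Prdx4 (-0.90), Ggt7 (-0.76), Prdx2 (-0.60), Msrb2 (-0.51), Prdx1 (-0.49), Prdx5 (-0.45) and Prdx3 (-0.39), and the higher ones were Cat, which encodes catalase (0.78), Ggt5 (0.71), Gsr, glutathione reductase (0.32), and Msrb3 (0.25). Prdx4, Cat, Ggt5 and Gsr kept the call in 14 of 14 fits without 1 library, Prdx3 and Msrb2 in 12, Prdx1 in 8, Prdx5 in 7, Prdx2 in 5, and Ggt7 and Msrb3 in 3. With the length slope as a covariate none of the genes of these 3 lists named for age passed, the lowest adjusted p being 0.155 for Prdx4 averaged over genotypes.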

How the data were processed

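Total RNA was depleted of ribosomal RNA and made into stranded libraries, per the labels' protocols. What the authors deposited is 1 table of raw read counts per gene, in whole numbers, for 14 libraries in 4 groups. The submitters' processing notes name featureCounts 1.6.3, STAR 2.7.3a, DESeq2 1.26.0 and cutadapt 1.16, with the build GRCm38. For the annotation release, strand setting and multi-mapped reads, the settings are not given in the sources here. Overlapping genes and near-identical copies could thus share reads. GENCODE M21 held 55227 of the 55487 identifiers.

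Totals were 20218992 to 30404416 counts per library, and no 2 libraries agreed within sampling noise (chi-square per degree of freedom of at least 19.8). Genes were kept by filterByExpr (minimum count 10, minimum total 15). Counts were scaled with TMM and tested genome-wide with edgeR 4.0.16 (R 4.3.3), with robust quasi-likelihood F-tests, 1 mean per group and 6 contrasts. P-values were adjusted by Benjamini-Hochberg over all 15528 genes and called at 0.05, whatever the fold. Log2 CPM used a prior count of 2 for the length slope, likeness, pairs of members and member levels set against markers. Member levels correlated with the length slope had no prior count. Marker means were taken after a small constant was added to CPM. The scripts were tested on simulated data. Alternatives were RLE scaling, no filter, a mean CPM of at least 1, DESeq2 1.42.0, limma voom 3.58.1, a fit on the compared groups only, a replicate block, removal of mitochondrially encoded genes, the length slope as a covariate, and leaving out each library. The members and gene lists were chosen with earlier results of these data known. The genes named are all 10 members, Sqstm1, and from each list those past the threshold or, with none, genes with the smallest unadjusted p.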

Additional observations from a re-analysis of the deposited data

How the results depend on the processing

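Of 600 values of the 10 genes under other settings, 549 kept their direction and side of the threshold, 24 changed sign, 17 lost and 10 gained a call. Of 700 values without 1 library, 568 kept both and 85 changed sign. The labels do not say whether equal replicate numbers mark hearts handled together. KO and WT hearts of the same number had correlations of -0.0468 to 0.315 at 2 months, against -0.303 to 0.153 for different numbers. At 15 months these ranges were -0.353 to 0.246 and -0.387 to 0.472. With 3 or 4 hearts per group, these values cannot decide whether the numbers mark pairs. For age, the replicate block was another grouping, which joined hearts of equal number across both ages and genotypes. Across ages, hearts of the same number had correlations of -0.128 to 0.309 in WT and -0.00272 to 0.0316 in KO hearts. Different numbers were not compared across ages, so these values cannot decide it either. With this block, genes called for age numbered 55 in WT (161 without), 70 in KO (349) and 1365 averaged over genotypes (3712). Of the 10 genes, 0 were called in WT or KO hearts and 4 averaged (Gpx1, Gpx7, Msrb1 and Selenok). Selenop (adjusted p = 0.0518), Gpx4, Gpx8 and Selenow lost that call. The cause of these changes was not tested. Gpx7 at 86 to 179 counts is the gene whose values depth limits most.

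Counts of genes called moved as follows. For KO against WT at 2 months (1), there were 3 with no filter, 2 with a mean CPM of at least 1, 7 with DESeq2 and 5 with the length slope. At 15 months (1), there were 7 with DESeq2 and 2 with the compared groups only, and averaged over ages (1) 5 with DESeq2. For age, WT gave 1100 with DESeq2 and 86 with the compared groups only. KO gave 1622 with DESeq2, 134 with the compared groups only and 86 with the length slope, and the average over genotypes gave 214 with the length slope. DESeq2 called 1 gene for the difference between KO effects. Without 1 library the counts ran from 1 to 3 for KO against WT at 15 months, 38 to 511 for age in WT, 49 to 3523 for age in KO, 0 to 1 for the difference between KO effects and 1531 to 5589 for the average over genotypes.

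Sign changes under other settings were as follows. With limma voom, Gpx3 for age in WT was 0.11, and the difference between KO effects was -0.033 for Gpx1 and -0.035 for Selenok. With the replicate block these last were -0.059 and -0.034. With the length slope, KO against WT at 15 months was 0.12 for Gpx1, 0.043 for Gpx7, 0.019 for Gpx8, 0.084 for Selenow, 0.054 for Selenok and 0.041 for Selenom. Averaged over ages it was 0.011 for Gpx1, 0.058 for Msrb1, 0.090 for Selenow and 0.084 for Selenop. For age in WT it was 0.080 for Gpx4 and 0.015 for Selenow, and in KO 0.060 for Gpx8, 0.0034 for Selenow, 0.025 for Selenop and 0.10 for Selenom. Averaged over genotypes it was -0.13 for Gpx3, 0.039 for Gpx4 and 0.0091 for Selenow.

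Without 1 library, KO against WT at 2 months ran from -0.25 to 0.092 for Gpx1, -1.29 to 0.017 for Gpx3, -0.38 to 0.14 for Gpx4, -0.30 to 0.0054 for Gpx8, -0.13 to 0.26 for Selenow, -0.36 to 0.11 for Selenop and -0.28 to 0.11 for Selenok. At 15 months it ran from -0.52 to 0.17 for Gpx1, -0.28 to 0.051 for Gpx3, -0.083 to 0.041 for Gpx7, -0.34 to 0.026 for Gpx8, -0.35 to 0.13 for Selenow, -0.24 to 0.29 for Selenop, -0.27 to 0.053 for Selenok and -0.21 to 0.13 for Selenom. Averaged over ages it ran from -0.31 to 0.040 for Gpx1, -0.095 to 0.057 for Msrb1, -0.14 to 0.096 for Selenow, -0.20 to 0.11 for Selenop and -0.18 to 0.028 for Selenok. Gpx3 for age in WT ran from -0.54 to 0.77. The difference between KO effects ran from -0.43 to 0.26 for Gpx1, -0.075 to 1.23 for Gpx3, -0.68 to 0.052 for Gpx4, -0.17 to 0.20 for Gpx8, -0.41 to 0.072 for Selenow, -0.093 to 0.47 for Selenop, -0.18 to 0.23 for Selenok and -0.013 to 0.32 for Selenom.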
